A study of Mus musculus with 8 samples.

Results

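The Nduf genes encode the nuclear subunits of mitochondrial complex I and part of its assembly machinery. The set comprised every protein-coding gene of the expression table whose symbol starts with Nduf, which gave 46 of 52636 genes, or 46 of the 22027 protein-coding ones. The rule for membership used gene names and no expression value. Of the 46, 38 are named as subunits and 8 (Ndufaf1 to Ndufaf8) as assembly factors. The name covers 2 genes that are not complex I subunits, Ndufa4, now placed in complex IV (cytochrome c oxidase), and its paralog Ndufa4l2, so 36 subunits of complex I remained.

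Complex I (NADH:ubiquinone oxidoreductase) is the largest enzyme of the respiratory chain and its main entry for electrons from NADH. Its core subunits pass electrons from a flavin along iron-sulfur clusters to ubiquinone, while a membrane arm, whose pumping subunits are the mitochondrially encoded mt-Nd proteins, moves protons. Accessory subunits surround this core, and assembly factors bind its intermediates and leave before the enzyme is finished. Satellite cells (SCs), from which muscle fibres regenerate, rest with few mitochondria and change their energy metabolism when they are activated.

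Messenger RNA was sequenced from SCs of 4 control and 4 exercise samples, all from male C57B/6J mice that were 10 weeks old when the groups were formed. Control mice stayed sedentary. The exercise group was trained on a treadmill on 4 days a week over 4 weeks, for 30 min a day at 12 m per min. About 800 cells were sorted for each library by surface markers (CD34+ α7-integrin+ cells that lacked CD45, CD11b, CD31 and Sca1), and a kit made for single cells amplified their RNA. Neither group carried a transgene or received a drug according to the labels. The labels do not state which mouse gave which sample, so p-values measure the spread between these samples, which may be partly technical.

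Control libraries held 2339966 to 3013354 reads on genes and exercise libraries 1011737 to 1200221. Some libraries stood apart or shared content. Exercise 1 and 2 were close to each other, with a chi-square of 3.86 for each degree of freedom, which exceeds sampling noise, where all other pairs within a group gave 82.6 to 711. Control 4 held the genes found in control 1 and absent from control 3 at a median of 0.281 times their level there, and the genes found in control 3 and absent from control 1 at 0.714 times. Exercise 3 held the genes of exercise 1 and of exercise 4 in like manner, at 0.299 and 0.677 times, and control 3 held those of control 2 absent from control 1 at 0.674 times. Members followed this relation, as with Ndufaf6, which had 105, 0, 0 and 32 reads in control 1 to 4. The count of lower members is therefore also given with these libraries merged or dropped. Of 12 satellite cell markers, 7 had reads in control and 3 in exercise libraries, and Pax7, a defining marker of the cell type, and Itga7, whose product was used in the sort, had none in any library. Cd34, the other positive sort marker, had 2 to 42 reads in control and 4 to 112 in exercise libraries. Of 12 myofibre genes, 11 had reads in control libraries, at a summed 8.23 to 13.1% of reads, and 10 in exercise libraries, at 3.35 to 5.61%, with Tnnc2 at 0. Of 8 fibro-adipogenic genes all had reads in both groups, at 1.64 to 1.74% of reads in control and 0.387 to 5.59% in exercise. The 8 leukocyte genes had no read, and the 8 endothelial genes took 1.39 to 3.11% of reads in control 2 to 4, nearly all from Kdr, and at most 0.000756% in the other libraries, with Pecam1 and Cdh5 at 0. Of 8 smooth muscle and pericyte genes, 2 had reads in control, at a summed 0.00128 to 0.0120% of reads, and 3 in exercise, at 0.0885, 0.0899, 0.0262 and 0.000692%, with Myh11 at 0 in every control library and Tagln at 0 in all 8. The part of these differences in the results below was not tested.

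Fewer Nduf genes were read after exercise. Of the 46 members, 40, 39, 42 and 44 had a read in control 1 to 4, against 27, 25, 31 and 22 in exercise 1 to 4. Each control library thus held more members than any exercise library. The gap remained when reads on genes were matched, since at the 1011737 reads of the shallowest library 36.8 to 43.2 members were expected with a read in control libraries and 20.4 to 27.5 in exercise libraries. Mitochondrial transcripts took more of exercise 3 and 4, so depth was also matched on nuclear genes, a choice made after seeing the data. At the 362038 nuclear reads of exercise 4, 34.7 to 41.5 members were expected with a read in control libraries and 20.6 to 26.3 in exercise libraries. At least 10 reads were found for 33 to 39 members in control and for 13 to 18 in exercise libraries. Genes of all kinds followed the same direction at 1011737 reads, with 4522 to 6257 read in control and 2089 to 3009 in exercise libraries. In bulk samples, fewer cells with a transcript and less of it per cell cannot be told apart.

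**Figure D1:**
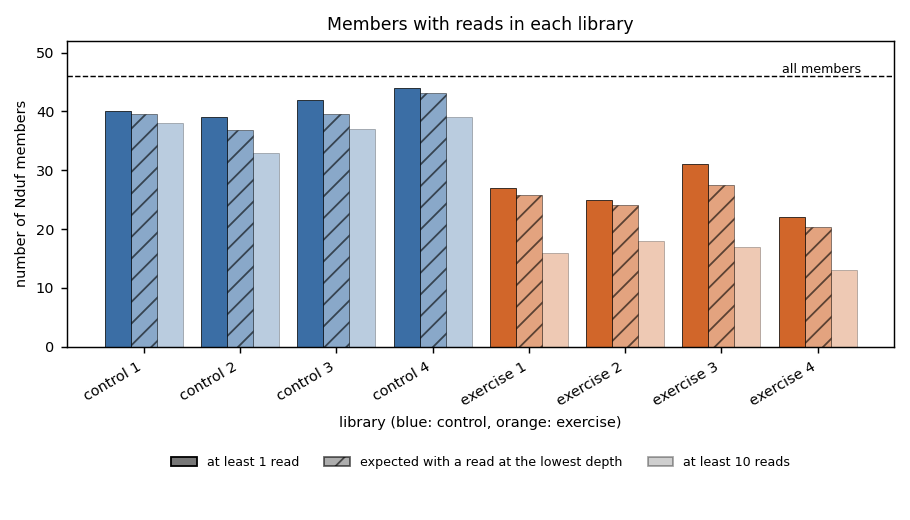
Number of the 46 Nduf genes (y axis) in each of the 8 libraries (x axis), as those with at least 1 read, those expected with a read at the lowest depth of 1011737 reads, and those with at least 10 reads. The dashed line marks all 46 genes. The 4 exercise libraries (22 to 31 genes with a read) lie below the 4 control libraries (39 to 44).

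Detection differed between members. 13 members had reads in all 8 libraries, among them Ndufs3, Ndufs4, Ndufa5, Ndufb5, Ndufb9, Ndufb10 and Ndufb11. 11 members had reads only in control libraries (Ndufv1, Ndufs8, Ndufa3, Ndufa8, Ndufa13, Ndufb8, Ndufaf1, Ndufaf3, Ndufaf4, Ndufaf5 and Ndufaf6), and 1 only in exercise libraries, Ndufaf7. These were 24.4 and 2.22% of the 45 members with a read, against 52.4 and 6.89% of all genes with a read. Ndufaf2 had no read anywhere. A count of 0 allows up to 3 reads, which for a transcript of 1 kb is 0.753 to 1.31 FPKM (reads per length and per library size) in control libraries but 1.79 to 10.4 FPKM in exercise libraries, by counting error only. The highest of these limits belonged to exercise 4, where the library size used for FPKM was 288190 against 1155592 reads on genes.

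**Figure D2:**
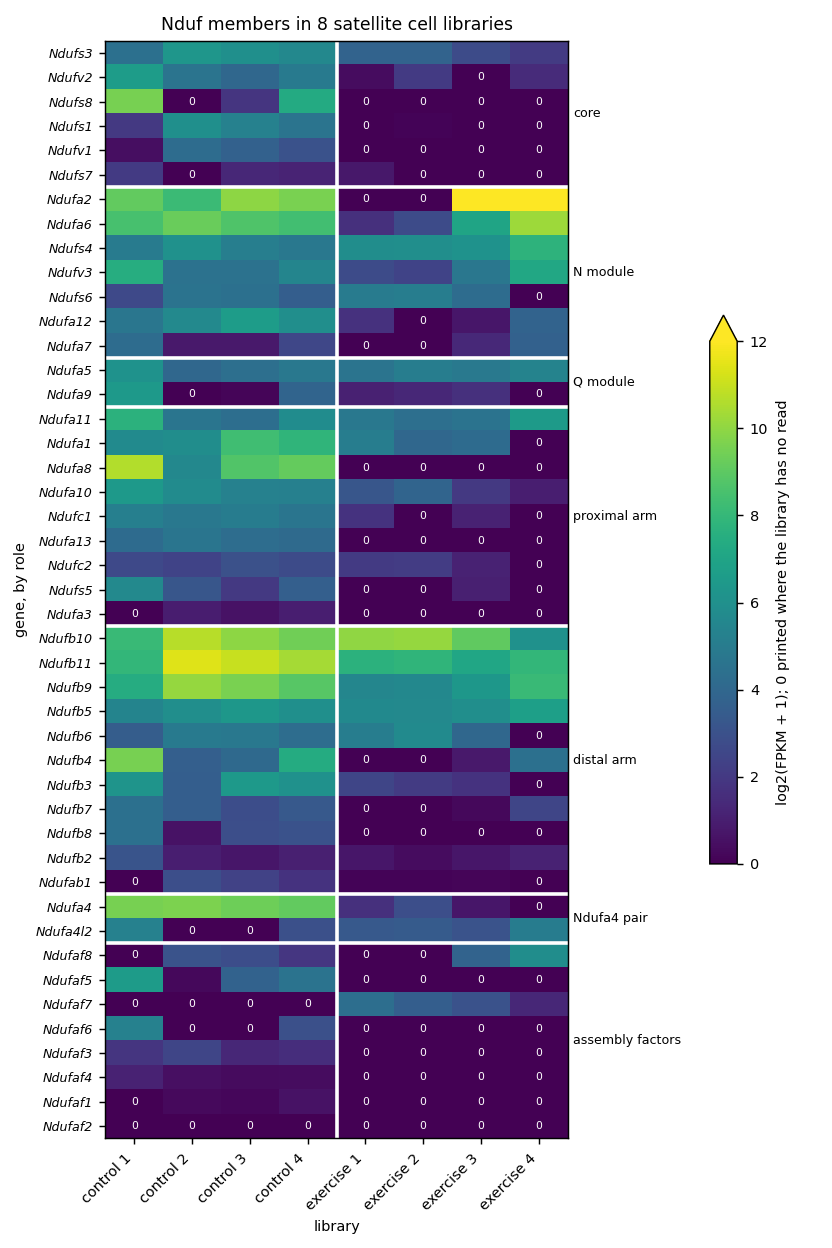
Level of 45 Nduf genes (rows, by role and then by mean level) in the 8 libraries (columns) on the log2(FPKM + 1) scale, where 0 marks a library with no read. The marks of no read gather in the exercise columns, and Ndufa2 runs past the top of the color scale in exercise 3 and 4.

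Exercise and control were compared by limma on log2(FPKM + 1) over the 4328 genes whose mean reached 1 FPKM, and 41 of the 46 members passed this filter. The 5 that did not were Ndufs7, Ndufa3, Ndufaf1, Ndufaf2 and Ndufaf4. In 13 of the 41 the exercise mean was under 1 FPKM, so these passed through their control level, and Ndufaf7, with a control mean of 0, passed through its exercise level. With a Benjamini-Hochberg adjusted p under 0.05 over all genes tested, 20 members were lower in exercise and 2 were higher, and 19 did not pass. Of all genes tested, 26.8% were lower and 8.78% higher by the same rule. In 21 members exercise and control libraries were fully separate, without overlap, as they were in 31.6% of all genes tested. The median log2 fold change of the 41 members was -2.46, against -1.42 over all genes tested. Quantile normalization left 8 members lower and 2 higher, where 8.66% of all genes tested were lower and 13.1% higher. It moved the log2 fold change median to -0.44 over all genes and to -1.65 over the members. A different measure was the log2 ratio of the group means of FPKM, without a pseudocount. For it, a group at or under 3 reads in every library was set to that limit. The medians of this ratio were -2.42 for the members tested and -1.19 for the genes tested.

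The count of lower members rested on the libraries used. It was 8 without control 4, where 9.5% of all genes tested were lower. It was 9 without exercise 1, exercise 2 or exercise 3, against 9.17, 9.58 and 8.14% of all genes, and 13 without control 3, against 14.2%. In these 5 fits the share of all genes called lower was also below 26.8%. The count of members was 15 without control 2 (18.1% of all genes), and 20 both without control 1 (37.6%) and without exercise 4 (19.5%). Merging exercise 1 and 2 into their average gave 9, where 9.51% of all genes tested were lower. With control 4 and exercise 3 also left out, no gene of any kind had a limma adjusted p under 0.05, and 10 members were lower and 1 higher at an unadjusted p under 0.05, where 7.42% of all genes tested were lower and 3% higher. 8 members were lower with all libraries and in each of the 8 fits that left out 1 library (Ndufv2, Ndufs1, Ndufa12, Ndufa8, Ndufa13, Ndufc1, Ndufb3 and Ndufa4), as were 8.04% of all genes tested. Ndufaf7, which rose, passed in all of these fits, as did 3.56% of all genes tested. The same 8 members were lower after quantile normalization and with exercise 1 and 2 averaged. Among them, Ndufa8, Ndufa13, Ndufs1 and Ndufc1 had exercise means under 1 FPKM and passed the filter through their control level. Ndufa8 and Ndufa13 had no exercise read, so leaving out an exercise library could not move their fold change.

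**Figure D3:**
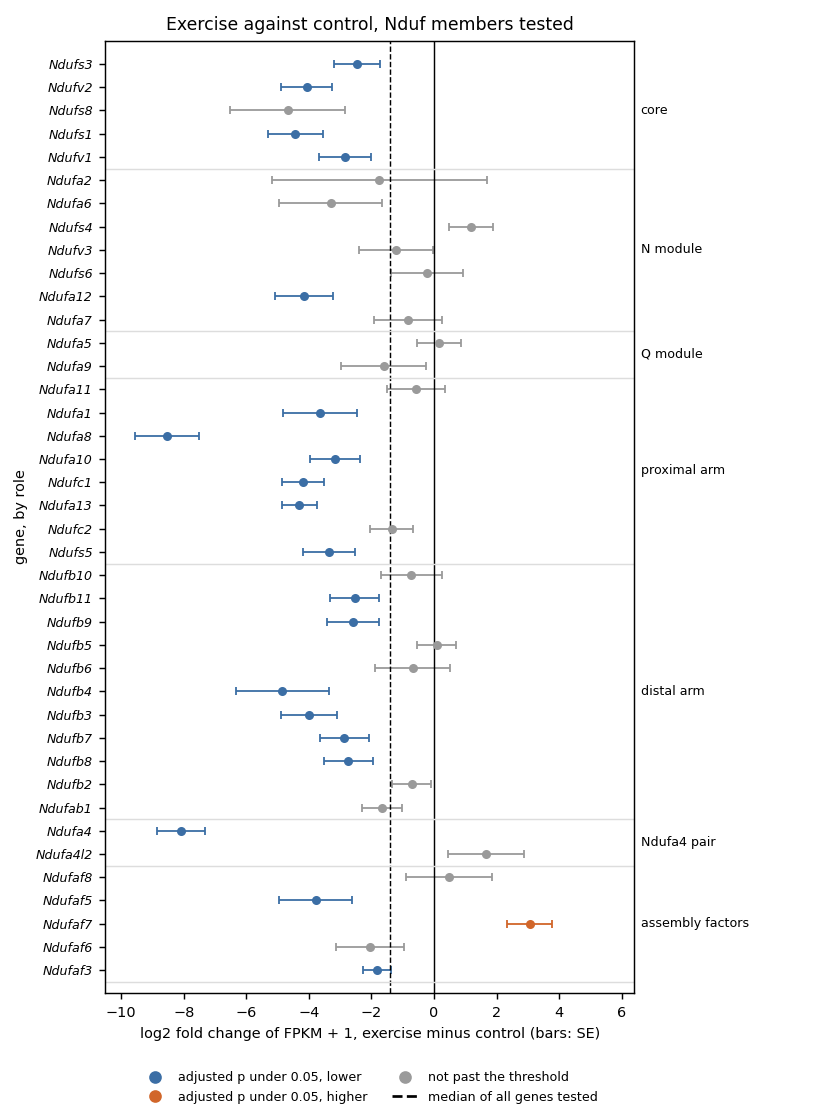
Log2 fold change of FPKM + 1, exercise minus control (x axis, with SE), of 40 Nduf genes tested (y axis, by role), colored by whether the limma adjusted p was under 0.05. The dashed line is the median of all genes tested (-1.42), and 34 of the 40 points lie below 0.

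Of the core subunits, 4 fell (Ndufv1, Ndufv2, Ndufs1 and Ndufs3), where 26.8% of all genes tested were lower. Ndufs8 did not pass and Ndufs7 was not tested. With exercise 1 and 2 averaged, Ndufv2 and Ndufs1 were lower, as were 9.51% of all genes. Ndufv1, which binds NADH and the flavin, had 0.346, 17.7, 12.3 and 7.17 FPKM in control 1 to 4 and 0 in every exercise library. The groups did not overlap, although control 1 rested on 2 reads. Its exercise level was at least 5.64-fold lower than control against the limit of 3 reads per library, and at least 3.97-fold lower without control 2. Ndufv2, its iron-sulfur partner, had 98.6, 23.3, 15.2 and 29.4 FPKM in control and 0.301, 3.15, 0 and 1.74 FPKM in exercise libraries. All 4 exercise values lay under the lowest control value, and the log2 fold change was -4.07 ± 0.81 (SE; limma adjusted p = 0.00739). Ndufs1, the largest core subunit, had 2.97, 61.9, 37.9 and 23.7 FPKM in control libraries, and only 1 read in all exercise libraries together, in exercise 2. It fell by 4.44 ± 0.88 on the log2 scale (SE; limma adjusted p = 0.00701).

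Ndufs3, which sits in the ubiquinone module, had 20.6, 79.2, 61.2 and 47.4 FPKM in control and 13.2, 12.9, 5.80 and 3.19 FPKM in exercise libraries. The groups lay close together at control 1 and exercise 1 but did not overlap, and the log2 fold change was -2.46 ± 0.75 (SE; limma adjusted p = 0.0343). Ndufs8, which carries iron-sulfur clusters, had 739, 0, 2.66 and 159 FPKM in control and no read in exercise libraries. Control 2 also had no read, so the groups overlapped, and with a limma adjusted p of 0.0678 Ndufs8 did not pass. Ndufs7, its neighbour near the ubiquinone site, had 3.05, 0, 1.49 and 1.31 FPKM in control libraries and 0.696 FPKM, from 2 reads, in exercise 1 alone. Both Ndufv1 and Ndufs3 missed the threshold without control 2, 3 or 4 or without exercise 1, 2 or 3, with limma adjusted p up to 0.0832 and 0.098.

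**Figure D4:**
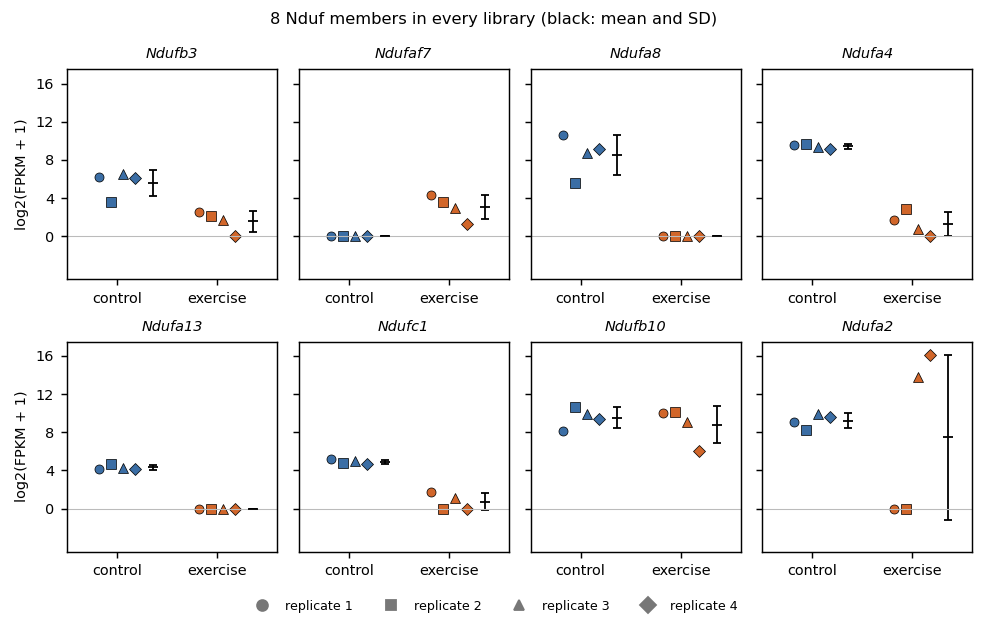
Level of 8 Nduf genes on the log2(FPKM + 1) scale (y axis) in the control and exercise libraries (x axis, symbols for replicates 1 to 4), with the mean and SD in black. Ndufaf7 is higher in all exercise libraries, Ndufb3, Ndufa8, Ndufa4, Ndufa13 and Ndufc1 are lower in all of them, Ndufb10 overlaps between groups, and Ndufa2 has no read in exercise 1 and 2 but its highest values in exercise 3 and 4.

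Promoters were available in the RefSeq table (GRCm38.p6) for 40 of the 46 members. They are shown here for the 3 flavoprotein genes, of which Ndufv1 and Ndufv2 fell and Ndufv3 did not pass, for Ndufa4, with its very large fall, and for Ndufb8, which was at 0 in exercise. Each run is the 120 bases nearest to the start that no annotated exon overlaps, written 5′ to 3′ on the strand of the gene, with the Sp1 motif in capitals, here as its reverse complement CCGCCC. Ndufv1 lies at chr19:4012807-4012926 (minus strand), Ndufv2 at chr17:66101560-66101679 (minus strand), Ndufv3 at chr17:31519995-31520114 (plus strand), Ndufa4 at chr6:11907498-11907617 (minus strand) and Ndufb8 at chr19:44555443-44555562 (minus strand).
Ndufv1: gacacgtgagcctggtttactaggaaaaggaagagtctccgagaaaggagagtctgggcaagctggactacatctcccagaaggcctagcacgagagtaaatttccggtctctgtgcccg
Ndufv2: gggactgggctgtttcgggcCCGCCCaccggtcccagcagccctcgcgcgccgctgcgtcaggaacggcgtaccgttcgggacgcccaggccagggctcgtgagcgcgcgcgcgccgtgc
Ndufv3: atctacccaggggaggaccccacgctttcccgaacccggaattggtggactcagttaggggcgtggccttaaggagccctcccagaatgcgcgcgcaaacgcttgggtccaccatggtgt
Ndufa4: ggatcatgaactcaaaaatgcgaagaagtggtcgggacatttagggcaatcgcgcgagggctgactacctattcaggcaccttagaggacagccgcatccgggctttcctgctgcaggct
Ndufb8: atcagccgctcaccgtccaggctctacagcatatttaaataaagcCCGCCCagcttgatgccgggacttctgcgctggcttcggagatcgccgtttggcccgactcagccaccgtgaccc
Over the 250 bases before the start and on both strands, the Sp1 motif GGGCGG was found in 19 of the 40 member promoters (47.5%), against 35.4% of all genes in the table and 64.8% of the genes tested. It was found for 10 of 18 members that fell and for 5 of 17 other members tested. The NRF1 core CGCATGCG was found for Ndufa8, Ndufa11 and Ndufaf4 (7.5%, against 1.75% of all genes and 4.15% of those tested), and the ETS motif CCGGAAG for 5 members (12.5%, against 7.83 and 16.1%). AAGATGGC (YY1) and TCAAGGTCA (ERR) were not found in these windows. None of the 5 motifs contains another in its letters, and a match is a match of letters, not a site in use.

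Of the 7 accessory subunits of the NADH-oxidising module, only Ndufa12 fell, none rose and 6 did not pass, a share no higher than the 26.8% of all genes tested that were lower. Ndufa12 had 24.8, 49.2, 97.2 and 59.1 FPKM in control and 2.24, 0, 0.676 and 13.0 FPKM in exercise libraries, which did not overlap (log2 fold change -4.15 ± 0.93, SE; limma adjusted p = 0.0113). Ndufs4, which stabilises the attachment of this module, was higher on average without passing. It had 31.3, 66.8, 33.6 and 26.9 FPKM in control and 58.8, 60.3, 68.7 and 214 FPKM in exercise libraries, and control 2 lay within the exercise range (log2 fold change 1.18 ± 0.71, SE; limma adjusted p = 0.185). Ndufs6 and Ndufa7 overlapped between groups, with log2 fold changes of -0.22 and -0.83 that turned to 0.92 and 0.18 under quantile normalization.

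Other members of the module spread widely within the exercise group. They were chosen for description after their values were seen. Ndufa2 had 729, 512, 2232 and 1752 reads in control 1 to 4, none in exercise 1 and 2, and 8843 and 11593 in exercise 3 and 4. Its level was thus 0 in 2 exercise libraries, and 13944 and 70327 FPKM in the other two, against at most 999.7 FPKM in control. With its groups straddling in this way, the log2 fold change was -1.75 ± 3.44 (SE; limma adjusted p = 0.686), and it was 0.74 without exercise 1 or without exercise 2. Ndufa6 had 363, 610.0, 415 and 332 FPKM in control and 2.14, 5.60, 127 and 1208 FPKM in exercise libraries, and Ndufv3 had 175, 22.0, 21.9 and 43.7 against 5.76, 4.28, 26.4 and 148 FPKM. In both, exercise 1 and 2 lay below every control library and exercise 4 lay above the lowest one in FPKM. The exercise 4 values came from 195 reads of Ndufa6 and 106 of Ndufv3. FPKM in that library used a size of 288190, against 1155592 reads on genes. The log2 fold change of Ndufa6 was -3.31 ± 1.65 (SE; limma adjusted p = 0.131), and it passed without exercise 4 (-4.92, limma adjusted p = 0.0173) and when libraries were scaled to the same sum (-4.08, limma adjusted p = 0.0338).

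Ndufa2 made up most of the Nduf reads in exercise 3 and 4. All members together held 0.789, 1.01, 0.967 and 0.888% of reads in control and 0.388, 0.402, 0.904 and 1.09% in exercise 1 to 4. The groups overlapped. Without Ndufa2 the shares were 0.757 to 0.989% in control and 0.0862 to 0.402% in exercise libraries, which did not overlap. The leading gene of the set also differed between libraries, since Ndufa8 held 23.3% of the summed FPKM of all members in control 1 and Ndufb11 held 34.7, 27.8 and 22.4% in control 2 to 4. In exercise 1 and 2 Ndufb10 held 59.5 and 60.4%, and in exercise 3 and 4 Ndufa2 held 91.7 and 96.3%. Mitochondrial transcripts took 50.2 and 68.7% of the reads of exercise 3 and 4, against 2.09 to 15.3% in the other libraries.

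**Figure D5:**
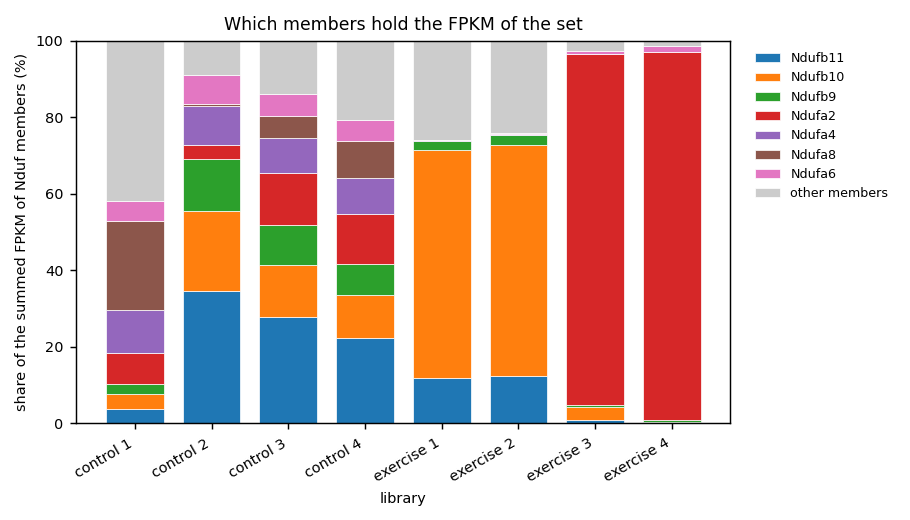
Share of the summed FPKM of the 46 Nduf genes (y axis, percent) held by 7 of them and by the others together in each library (x axis). Ndufb11 leads in control 2 to 4, Ndufb10 holds 59.5 and 60.4% in exercise 1 and 2, and Ndufa2 holds 91.7 and 96.3% in exercise 3 and 4.

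The 2 accessory subunits of the ubiquinone module did not pass. Ndufa5 had 68.9, 15.2, 19.6 and 26.8 FPKM in control and 23.2, 33.4, 28.0 and 40.3 FPKM in exercise libraries, which overlapped widely. Its log2 fold change was 0.16 ± 0.70 (SE), and -0.52 when libraries were scaled to the same sum of FPKM. Ndufa9, which helps to hold both arms of the enzyme together, had 88.2, 0, 0.122 and 13.6 FPKM in control and at most 2.15 FPKM in exercise libraries. Control 1 stood far above the rest, and control 2 had no read.

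The accessory subunits of the proximal part of the membrane arm numbered 9. Of these, 8 were tested and 6 fell (Ndufa1, Ndufa8, Ndufa10, Ndufa13, Ndufc1 and Ndufs5), where 26.8% of all genes tested were lower, and 4 were lower with exercise 1 and 2 averaged, where 9.51% of all genes were. Ndufa8, Ndufa13 and Ndufc1 passed in every fit that left out 1 library. For Ndufa8 and Ndufa13, leaving out an exercise library could not move the fold change. Ndufa8 (chr2:36036326-36049406 on mm10), a subunit of the intermembrane space face, had 1579.8, 47.4, 429 and 568 FPKM in control 1 to 4 and no read in any exercise library. The 4 control libraries held 6638 reads of it. Its exercise level was at least 135-fold lower against the limit of 3 reads per library, or at least 71.5-fold lower without control 1 (limma adjusted p = 0.000725). Ndufa13, also known as Grim19, had 17.1, 24.3, 18.4 and 16.7 FPKM in control libraries and no exercise read. Its control values stayed within 16.7 and 24.3 FPKM, and its exercise level was at least 5.70-fold lower (limma adjusted p = 0.00104). Ndufc1, a small membrane subunit, had 34.7, 26.9, 31.4 and 24.5 FPKM in control and 2.40, 0, 1.21 and 0 FPKM in exercise libraries. The groups did not overlap, and the log2 fold change was -4.18 ± 0.67 (SE; limma adjusted p = 0.00286).

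Ndufs5, which like Ndufa8 faces the intermembrane space, had 49.2, 8.35, 2.98 and 11.4 FPKM in control libraries and 1 exercise read in all, in exercise 3. It fell by 3.37 ± 0.83 on the log2 scale (SE; limma adjusted p = 0.0166), but missed the threshold without control 4, exercise 1 or exercise 2, with a limma adjusted p up to 0.0566. Ndufa1, an early membrane subunit, had 53.1, 58.5, 323 and 229 FPKM in control and 32.8, 15.0, 17.2 and 0 FPKM in exercise libraries. Its groups did not overlap (log2 fold change -3.64 ± 1.18, SE; limma adjusted p = 0.0398), and it passed in only 2 of the 8 fits that left out 1 library, those without control 1 or exercise 4, with a limma adjusted p up to 0.109 in the others. Ndufa10, a relative of the nucleoside kinases, had a log2 fold change of -3.16 (limma adjusted p = 0.0185), and missed the threshold without control 4 or exercise 3, with a limma adjusted p up to 0.0696. Ndufc2 had separate groups (4.33 to 6.80 FPKM in control, 0 to 3.32 in exercise) but did not pass (limma adjusted p = 0.129), and its log2 fold change of -1.36 turned to 0.22 under quantile normalization. Ndufa11 overlapped, and Ndufa3 had 9 control reads in all and none in exercise.

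Of the 11 accessory subunits of the distal membrane arm, 6 fell (Ndufb3, Ndufb4, Ndufb7, Ndufb8, Ndufb9 and Ndufb11) and 5 did not pass, where 26.8% of all genes tested were lower. With exercise 1 and 2 averaged, only Ndufb3 was lower, where 9.51% of all genes were. Ndufb3 had 72.0, 11.1, 89.7 and 66.1 FPKM in control and 4.70, 3.29, 2.36 and 0 FPKM in exercise libraries, with no overlap (log2 fold change -4.00 ± 0.90, SE; limma adjusted p = 0.0115). The other 5 falls each missed the threshold without control 4, exercise 1, exercise 2 or exercise 3, with limma adjusted p of up to 0.0798 (Ndufb7) to 0.1 (Ndufb9). Ndufb8 had 0.519 to 20.6 FPKM in control libraries and no exercise read, at least 6.50-fold lower, or at least 3.51-fold lower without control 1.

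Ndufb11 and Ndufb10 had the highest mean FPKM of the set after Ndufa2, and the members below, like Ndufb9, Ndufb4 and Ndufb5, were described after their values were seen. Ndufb11 had 249, 2757, 2035 and 1318 FPKM in control and 206, 227, 138 and 248 FPKM in exercise libraries. The groups met at control 1 and exercise 4 without overlap (log2 fold change -2.54 ± 0.78, SE; limma adjusted p = 0.0349). Ndufb10, which has the paired cysteine motifs of the intermembrane space, had 277, 1660.2, 995 and 667 FPKM in control and 1035, 1112, 528 and 65.6 FPKM in exercise libraries. Exercise 1 and 2 lay inside the control range, and the log2 fold change was -0.73 ± 0.97 (SE; limma adjusted p = 0.542). Ndufb9 and Ndufb4 passed although 1 exercise library, exercise 4, lay within their control range, at 282 and 20.8 FPKM. These values came from 53 and 7 reads, in the library with the smallest size used for FPKM (288190). Ndufb5 had the smallest ratio of highest to lowest FPKM of the 13 members read in every library (2.64), at 41.4 to 81.2 FPKM in control and 49.3 to 109 FPKM in exercise libraries. Its log2 fold change was 0.09 ± 0.62 (SE), and -0.61 when libraries were scaled to the same sum of FPKM. Mrpl47 overlaps 616 bases of Ndufb5 on the other strand and had 1 to 26 reads in control and 52 to 4469 in exercise libraries, and whether reads were counted by strand is not given in the sources used here. Without strand, the reads of both genes cannot be told apart over the overlap.

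The Ndufa4 pair split. Ndufa4 (chr6:11900292-11907497 on mm10), a subunit of cytochrome c oxidase, had 750.4, 793, 651 and 556 FPKM in control 1 to 4 and 2.17, 6.35, 0.653 and 0 FPKM in exercise 1 to 4. Its means were 687 ± 106 and 2.29 ± 2.85 FPKM (SD, n = 4 each). The groups lay far apart, on 12296 control and 20 exercise reads, and the log2 fold change was -8.10 ± 0.76 (SE; limma adjusted p = 0.000446, the smallest of the members). Ndufa4l2, whose product is known to rise in low oxygen, had 38.2, 0, 0 and 6.65 FPKM in control and 9.29, 9.73, 7.41 and 31.7 FPKM in exercise libraries. Control 1 lay above all exercise libraries and the log2 fold change of 1.67 ± 1.21 did not pass (SE; limma adjusted p = 0.265). Without control 1 it passed, with a limma adjusted p of 0.0366. Shmt2 overlaps 32 bases of Ndufa4l2 on the other strand and had at most 1 read in control but 856, 897, 315 and 12 in exercise libraries, where Ndufa4l2 had 17, 17, 9 and 10 reads, so the same limit on strand applies.

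Assembly factors were read at low levels. Of the 8, 4 to 6 had a read in each control library and 1 or 2 in each exercise library. 5 were tested, of which Ndufaf3 and Ndufaf5 fell, Ndufaf7 rose, and Ndufaf6 and Ndufaf8 did not pass, where 26.8% of all genes tested were lower and 8.78% higher. With exercise 1 and 2 averaged none of the 5 was lower and Ndufaf7 was higher. Ndufaf5, which modifies Ndufs7, had 95.3, 0.183, 12.5 and 22.6 FPKM in control libraries and no exercise read, and was at least 13.9-fold lower, or at least 5.005-fold lower without control 1. Control 2 rested on 1 read, and the limma adjusted p was 0.0353. Ndufaf5 missed the threshold without control 3, control 4 or any 1 exercise library, with a limma adjusted p up to 0.095. Ndufaf3, which acts on the ubiquinone module with Ndufaf4, had 2.64, 4.68, 1.55 and 1.94 FPKM in control libraries and no exercise read. Its control mean of 2.70 FPKM was close to what 3 reads allow in exercise libraries (0.989 to 5.74 FPKM). The level was thus at least 1.17-fold lower, with no bound above 1 without control 2. The limma adjusted p was 0.0177, and Ndufaf3 missed the threshold without control 4, exercise 1, exercise 2 or exercise 3, with a limma adjusted p up to 0.0724. Ndufaf4 had 11, 5, 4 and 5 control reads and no exercise read, below the filter.

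Ndufaf7 (chr17:78937135-78948052 on mm10), a methyltransferase, had no read in any control library and 19.0, 10.9, 7.05 and 1.51 FPKM in exercise 1 to 4. These values came from 73, 40, 18 and 1 reads, so exercise 4 rested on a single read. Its exercise level was at least 23.2-fold higher against the limit of 3 reads per control library, or at least 15.7-fold higher without exercise 1. Its limma adjusted p of 0.0131 belongs to a gene that passed the filter only through exercise. In the annotation used here no other gene overlaps it. Ndufaf8, the partner of Ndufaf5, had 0, 7.44, 6.14 and 2.71 FPKM in control and 0, 0, 13.0 and 58.2 FPKM in exercise libraries, which overlapped (log2 fold change 0.47, and -0.20 with a pseudocount of 0.1; limma adjusted p = 0.788). Ndufaf6 had reads in control 1 and 4 only and did not pass (limma adjusted p = 0.147).

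Outside the set, 9 further assembly factors of complex I had a row in the table. Acad9, Foxred1 and Tmem186 had no read in any library. The other 6 had reads in control libraries only, where 52.4% of all genes with a read had reads in control only. Ecsit, Timmdc1 and Nubpl, however, had only 1 or 2 control reads in total, and exercise libraries were shallower. Tmem70 had 11, 57, 85 and 55 control reads and fell (limma adjusted p = 0.00686), while Tmem126a, with 2296, 1, 1 and 817 control reads, did not pass (limma adjusted p = 0.112). Of the 7 mitochondrially encoded subunits none passed. They took 0.067 to 0.501% of reads in control and 0.0883, 0.0849, 3.08 and 4.42% in exercise 1 to 4, so exercise 3 and 4 lay above and exercise 1 and 2 within the control range.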

How the data were processed

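RNA from about 800 sorted satellite cells per sample was sequenced in 4 control and 4 exercise samples, grouped by the labels. The deposited values are FPKM per gene, made by the authors on mm10. The submitters' processing notes name Bowtie 0.12.9, Cufflinks 2.1.1 and HTSeq, and the study's methods name DESeq2 for its own comparison. Strand handling is not given in the sources used here. FPKM multiplied by gene length gave whole reads for 100% of values (tolerance 0.001), from which depth was taken. Library size in FPKM was not the read total.

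FPKM of rows sharing a symbol were summed. Genes whose mean reached 1 FPKM were tested by limma 3.58.1 (R 4.3.3) on log2(FPKM + 1) with a trended prior and Benjamini-Hochberg adjustment over all genes tested. Fold changes on this scale understate low genes. A level of 0 was bounded by 3 reads per library, which covers counting error only. Figures used matplotlib 3.10.9.

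The members and gene lists were chosen with earlier results of these data known. Values per library were given by rule for core subunits, for up to 12 members that passed without overlap in order of absolute log2 fold change, for members with a higher mean and an unadjusted p under 0.05 and the 3 largest log2 fold changes above 0, for assembly factors read in at least 4 libraries, and for Ndufa4 and Ndufa4l2. Ndufa2, Ndufa5, Ndufa6, Ndufa9, Ndufaf6, Ndufb4, Ndufb5, Ndufb9, Ndufb10, Ndufb11, Ndufs4 and Ndufv3 were added after their values were seen. Values of 1 member that entered the counts are not reported here. Alternatives were the pseudocount, filter, scaling, a voom fit on the recovered reads, leaving out each library, averaging exercise 1 and 2, and a replicate block.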

Additional observations from a re-analysis of the deposited data

Results flagged for a closer look

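In 52 groups of 4 libraries, the highest or lowest library was compared with the other three by Dixon's ratio at its 95% critical value, and 5 were found. Chance alone marks about 5% of such groups, and in 3 of the 5 the other three libraries were all at 0, which fixes the ratio. Values are on the log2(FPKM + 1) scale. Ndufs1 was 0.108 in exercise 2 and 0 in the other exercise libraries, which is 1 read. Ndufs7 was 0.762 in exercise 1 and 0 in the others, from 2 reads, and Ndufs5 was 1.03 in exercise 3 and 0 in the others, from 1 read. Ndufb3 was 3.60 in control 2, below the 6.07 to 6.50 of the other control libraries and still above every exercise library. Ndufs4 was 7.75 in exercise 4, where the other exercise libraries held 5.90 to 6.12. In reads it had 226, 221, 175 and 142 in exercise 1 to 4, so exercise 4 was the lowest. The library size used for FPKM was 288190 in exercise 4, against 1108740 to 1672060 in the other exercise libraries.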

How the results depend on the processing

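With all libraries 20 members were lower. The count was 12 without a filter (6.71% of all genes lower), 8 with quantile normalization, 9 with exercise 1 and 2 averaged, and 8 to 20 when 1 library was left out, of which 8 to 19 belonged to the 20. With control 4 and exercise 3 also left out, 0 were lower and 0 higher, as for all genes tested. Quantile normalization turned the calls over all genes from 1161 lower and 380 higher to 375 and 566, and left 13 members with separate groups, as were 30.8% of all genes. The median log2 fold change of the members was -3.41 with a pseudocount of 0.1, -1.82 without a filter, -1.65 with quantile normalization, -2.94 when scaled to the same sum, -2.82 with voom, and -2.57 to -2.06 when 1 library was left out. Its difference from the median of all genes (-1.05) was -1.50 without a filter and -1.18 to -0.68 when 1 library was left out. Counting members at 10 reads gave a mean of 16.0 per exercise library in place of 26.25, and matching depth on nuclear genes gave 23.3 (37.9 in control). Signs turned in these alternatives for 11 of the 41 tested members, none of which passed with all libraries: Ndufaf8 (-0.20 with a pseudocount of 0.1, -0.40 at the same sum, and -0.68 to 1.28 when 1 library was left out, below 0 at -0.18 without control 1 and -0.68 without exercise 4), Ndufa2 (0.74 without exercise 1, without exercise 2 or with both averaged, and as low as -4.63 without exercise 4), Ndufb10 (0.19 without exercise 4, and as low as -1.20 without control 1), Ndufb5 (-0.61 at the same sum, -0.08 without control 1, -0.17 without exercise 4, -0.0072 with voom, and up to 0.24 without control 3) and Ndufa5 (-0.52 at the same sum, -0.11 without control 2, and up to 0.59 without control 1), and Ndufs6, Ndufa7, Ndufa11, Ndufb2, Ndufb6 and Ndufc2 (0.12 to 0.92 with quantile normalization, and 0.97 for Ndufs6 and 0.55 for Ndufb6 without exercise 4). With the replicate block 16 members were lower and 2 higher, where 18.2% of all genes were lower. Deviations of same-numbered libraries from their group means had correlations of -0.017 to 0.039. The control library that correlated best carried the same number for exercise 2, 3 and 4, but not for exercise 1. With 4 libraries per group, some of which share content, these values cannot decide whether the numbers pair the samples. Of 556 further values for 28 single members, 433 kept their direction and side of the threshold. The limit of 3 reads is highest in FPKM in exercise 4.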
